A study of Mus musculus with 288 samples.

Results

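The comparison is between mouse embryonic stem cells 48 h after release from 2i medium (label D2) and cells kept in 2i medium (label D0, 0 h). The members are all wells with those labels that held over 200000 reads, over 2000 genes with a read and less than 15% of reads from mitochondrially encoded genes. These were 90 D0 and 93 D2 cells, 183 of the 288 wells of the RNA table and of the 233 wells that passed in it, and each label filled 96 wells. The rule used depth, gene number and mitochondrial share and no other measured value. Both labels were E14, a mouse embryonic stem cell line of strain 129/Ola. D0 cells grew in N2B27 with CHIR99021, PD0325901 and LIF on gelatine, and D2 cells had the medium changed to serum with LIF for 48 h, so LIF was present in both labels and serum in D2 alone. All cells were dissociated with accutase, flow sorted into 1 plate per label and treated with the GpC methyltransferase M.CviPI before lysis. Polyadenylated RNA was sequenced from each well. The labels name no separate cultures, so each label counts as 1 culture, the cells are not replicates, and every difference below is a value with no test. The culture, the plate and the time point cannot be told apart.

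PD0325901 inhibits MEK, the kinase that activates ERK, and CHIR99021 inhibits GSK3, the kinase that marks beta-catenin for degradation. In 2i the ERK cascade is therefore low, beta-catenin is stable and DNA methylation is low, and cells show the naive state of pluripotency of the early embryo. When the inhibitors are removed ERK signalling returns, stabilisation of beta-catenin ends, and the de novo methyltransferases Dnmt3a and Dnmt3b restore DNA methylation. Serum also brings ligands of the BMP family, which induce the Id genes, and carries cholesterol and other lipids, which cells take up in place of making them.

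Reads per cell ran from 255040 to 10073000 in D0 (median 1610760) and from 491549 to 9812320 in D2 (median 2162090). 2 D0 cells, with 2342 and 3875 genes, correlated better with the mean D2 profile than with the mean D0 profile. Hprt, a purine salvage gene that some sublines of E14 lack, had a median of 0 CPM in both D0 and D2 against 179.6 CPM in the 50 cells at 24 h, and the 4 Y-linked genes summed to medians of 0, 0 and 245 CPM. D0 and D2 were alike in both and the 24 h cells stood apart, so the 24 h cells are not used here as a midpoint. Over 10 CPM of Hprt was found in 7 D0 and 5 D2 cells, and 6 and 5 of these lay among the 8 kept cells of plate column 12. Without the cells with over 10 CPM of Hprt or of Y-linked genes the numbers of genes at least 2-fold higher and lower, introduced below, were 1226 and 2354, and without column 12 they were 1235 and 2336, against 1220 and 2318. Without the 2 D0 cells that were nearer to D2 they were 1238 and 2343.

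D2 cells held reads from far fewer genes than D0 cells. Genes with a read numbered 2342 to 10869 in D0 (median 9002) and 2209 to 7971 in D2 (median 4744), although D2 cells had more reads. All 93 D2 cells lay below the D0 median, and 3 D0 cells lay below the D2 median. With every cell thinned at random to 200000 reads the medians were 7793.5 and 3945 genes, so the gap was as wide at equal depth. In the 24 h cells the thinned median was 8035 genes. The reads of a D2 cell were held by fewer genes: the 100 most abundant genes took a median of 21.5% of the reads of a D0 cell and 28.3% of those of a D2 cell. A median of 694 genes accounted for 50% of the reads in D0 and 319 genes did so in D2. The mitochondrially encoded share was 1.22 to 10.4% in D0 (median 4.54) and 0.000713 to 2.78% in D2 (median 1.32). Their part in the results below was not tested.

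Because of this gap, the level of a gene and the share of cells with a read of it had to be read apart. Level is given as the mean over cells of CPM (reads of the gene per 1000000 reads of the cell), and the comparison as the log2 ratio of mean CPM plus 1, D2 over D0. That pseudocount understates the change of genes at low levels. Among genes whose thinned mean level differed by less than 0.5 on the log2 scale, the share of cells with a read was lower in D2 at every level but the highest. At 20 to 50 CPM the median share over 890 such genes was 68.9% of D0 cells and 24.7% of D2 cells. At 50 to 100 CPM it was 87.8% and 43.01% over 610 genes, at 100 to 200 CPM 95.6% and 62.4% over 435 genes, and over 1000 CPM 100% in both. Since these genes were chosen for like mean levels, a lower share goes with a higher level in the cells that have a read: at 20 to 50 CPM the median level among cells with a read was 49 CPM in D0 and 135 CPM in D2. The median coefficient of variation over cells was 1.29 in D0 and 3.05 in D2 for the same genes. Fewer cells that transcribe a gene and a lower chance of capturing a transcript both give fewer cells with a read, and these counts cannot separate them.

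**Figure D1:**
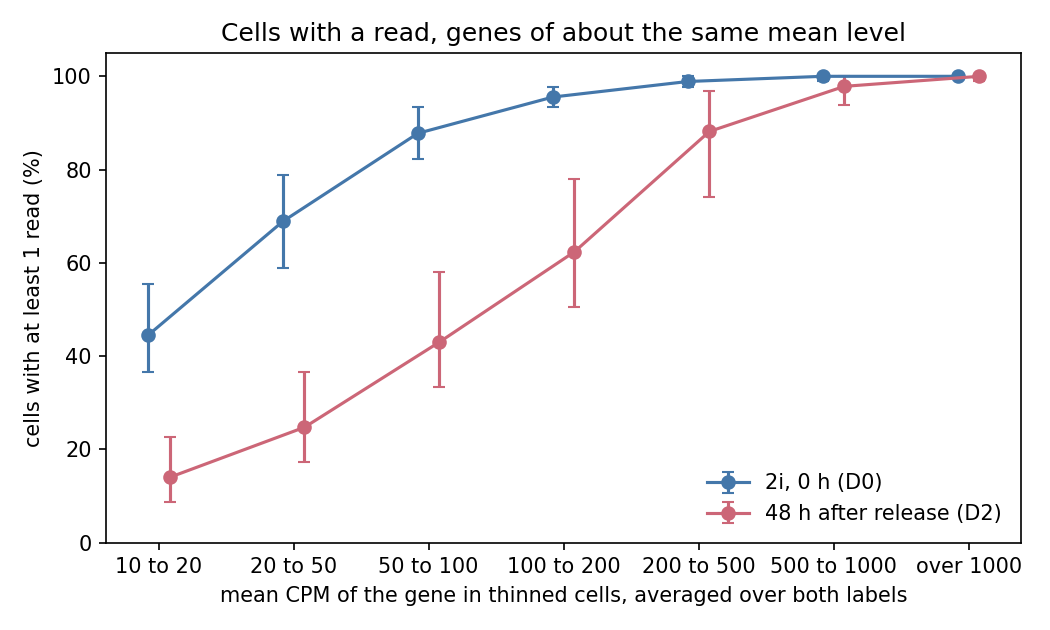
Share of cells with at least 1 read (y axis, percent, cells thinned to 200000 reads) for genes whose mean level differed by less than 0.5 on the log2 scale between the labels, by mean CPM (x axis). Points are medians over genes and bars the middle 50% of genes. D2 cells lie below D0 cells up to 1000 CPM and meet them above it.

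Over all 8750 genes compared (average of both label means at least 10 CPM), 8063 had a lower share of D2 than of D0 cells with a read after thinning, while 3959 had a higher thinned level. Of those 3959 genes, 3338 (84.3%) had the higher level and the lower share together. The reverse, a lower level with a higher share, was found for 15 genes. Split into its parts, the thinned ratio had a median share part of -1.18 and a median part from the level in cells with a read of 0.99 on the log2 scale. None of the 7 Wnt targets or 11 mitochondrially encoded genes compared, described below, had the higher level and the lower share together. This follows mostly from the direction of their levels, since 6 and 11 of them had log2 ratios below 0. Genes of other pathways had both together. Tet2, which oxidises methylcytosine, had a log2 ratio of 0.57 with a read in 97.8% of D0 and 59.1% of D2 cells after thinning. Lss, which makes lanosterol, had a log2 ratio of 1.00 with 83.3% of D0 and 30.1% of D2 cells, and F11r, a tight junction protein, had 1.95 with 78.9% of D0 and 44.1% of D2 cells. Krt8, a keratin, had a log2 ratio of 0.25 with 73.3% of D0 and 12.9% of D2 cells. A single D2 cell held 83.1% of the summed Krt8 CPM of D2, and without the highest cell of each label the log2 ratio was -2.12.

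The log2 ratio was lower for longer transcripts. With the genes put into 10 groups of equal size by length, from the shortest to the longest group of the 8641 genes with a length (98.8% of those compared), the median log2 ratio went from 0.47 to -1.13. At least 2-fold lower in D2 were 6.58% of the shortest and 52.8% of the longest group, and at least 2-fold higher were 18.8% and 6.25%. The Spearman rank correlation between length and log2 ratio was -0.38 over these genes, which share the same 2 sets of libraries and are not independent. Transcripts over 5000 bases took a median of 16.5% of the reads of a D0 cell and 9.24% of those of a D2 cell, with 10.4% in the 24 h cells. All 93 D2 cells lay below the D0 median. The part of length in the results was not tested, and each list below with 4 or more genes compared, the trophectoderm markers apart, is also given after subtracting the median log2 ratio of genes of like length, with the numbers then at least 2-fold higher and lower.

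**Figure D2:**
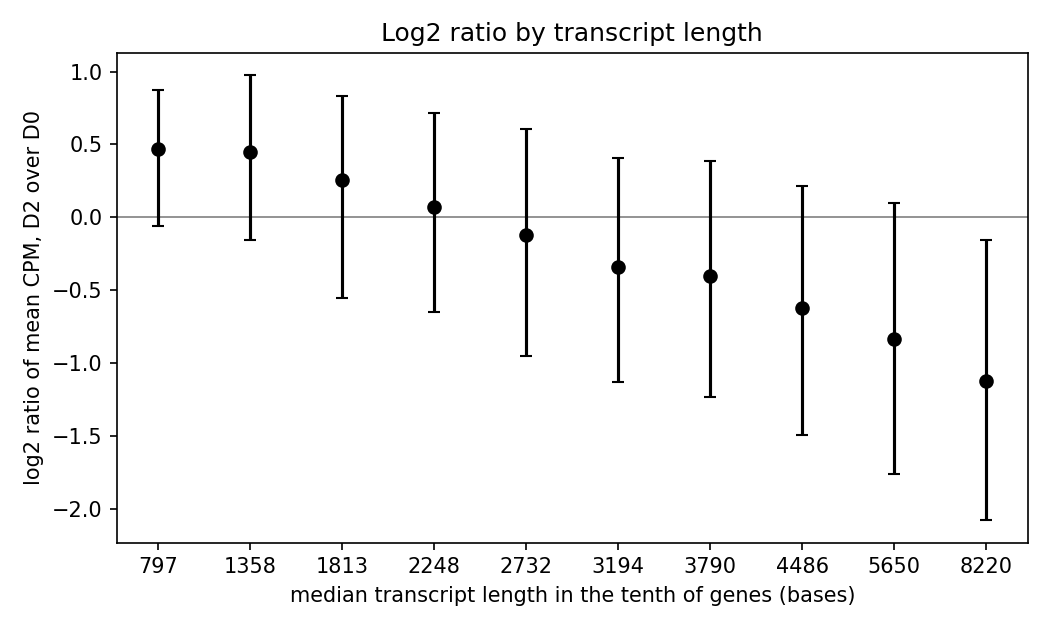
Log2 ratio of mean CPM, D2 over D0 (y axis), in 10 groups of compared genes ordered by transcript length (x axis, median bases of the group). Points are medians and bars the middle 50% of genes; the median goes from 0.47 to -1.13.

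Of the 8750 genes, 1220 (13.9%) were at least 2-fold higher in D2 and 2318 (26.5%) at least 2-fold lower, and the median log2 ratio was -0.15. Past 2-fold also after thinning and on both sides of the plate were 732 and 1680 genes. Log2 ratios over 3 were found for 118 genes and ratios under -3 for 352. The split depends on the scaling: with TMM factors 1633 genes were higher and 1991 lower, and with median-of-ratios factors 1705 and 1937, since these raise the median log2 ratio of all genes by 0.19 and 0.22. Without the highest cell of each label for each gene 985 were higher and 3070 lower. After subtracting the medians for length 1486 of 8641 genes (17.2%) were higher and 1716 (19.9%) lower. The counts for each gene list below are to be read against 13.9% and 26.5%, and those less the length medians against 17.2% and 19.9%.

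**Figure D3:**
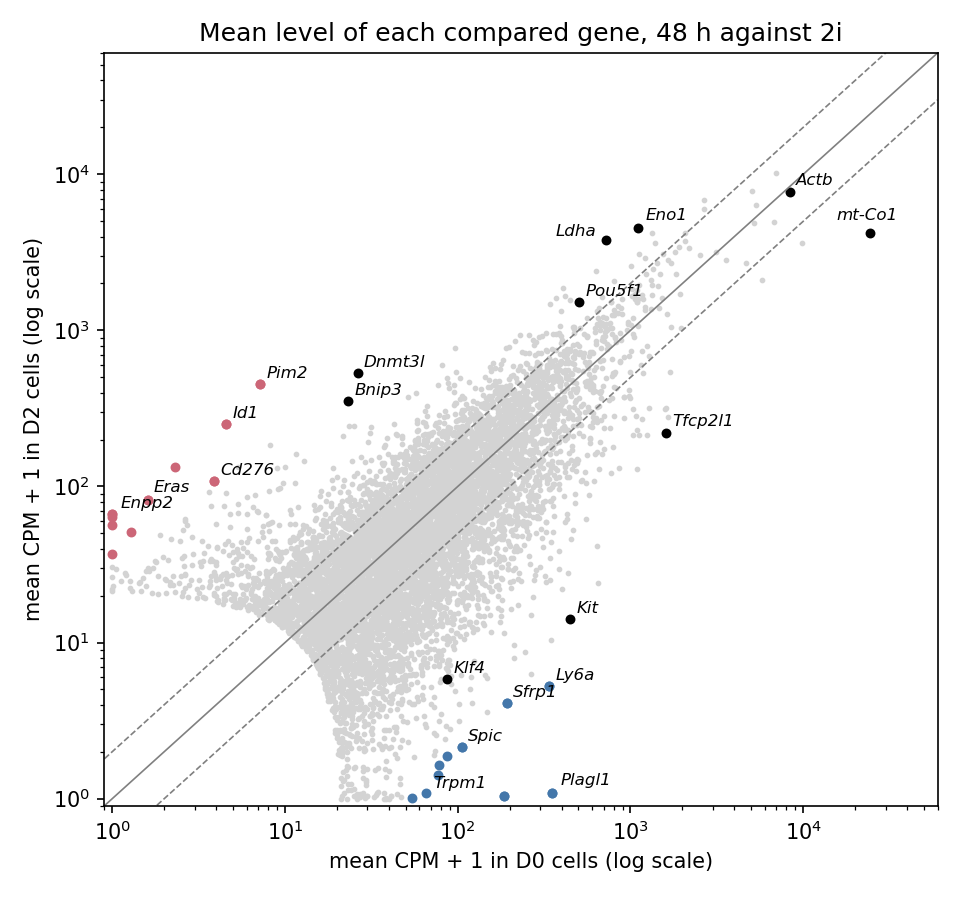
Mean CPM plus 1 of each compared gene in D0 (x axis) and D2 cells (y axis), both on log scales; the solid line marks equal levels and the dashed lines 2-fold. Red and blue points are the 10 largest ratios upward and downward named in the text, of which some are labelled, and black points are other genes named in the text.

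The 10 largest ratios upward with an established symbol included 4 genes with no read in any D0 cell, which allows up to 3.33% of D0 cells with a read. These limits are for cells with a read, not for cells that express the gene. Prss50, a serine protease known from testis, ran from 0 to 679 CPM over the D2 cells and had a read in 39 of them. Its D2 mean was 427 times a D0 floor of 3 reads in the shallowest cell. That floor gives no lower limit on the fold, since reads in up to 3.33% of D0 cells at D2 levels would exceed it. Coch, an extracellular matrix protein, was at 479.6 times that floor with a read in 17 D2 cells, and Crabp2, a carrier of retinoic acid, at 275 times with a read in 29. Enpp2, the secreted enzyme that makes lysophosphatidic acid, had a read in 8 D2 cells and 1 of them held 79.2% of its summed CPM. The other 6 were read in both labels. Pim2, a serine/threonine kinase, was at 0 to 98.7 CPM over the D0 cells (median 0) and 0 to 4772 CPM over the D2 cells (median 1.11), and its log2 ratio was 5.97. Id1, an inhibitor of helix-loop-helix factors, was at 0 to 51.3 CPM over the D0 cells (median 0) and 0 to 1334 CPM over the D2 cells (median 118), with a log2 ratio of 5.78. The groups overlapped for both, but 33 D2 cells for Pim2 and 61 for Id1 lay above the highest D0 cell. Eras, a Ras-like GTPase of embryonic stem cells, had a read in 3 D0 and 59 D2 cells and a log2 ratio of 5.67. Arhgdib had a log2 ratio of 5.84 with reads in 10 D0 and 56 D2 cells. Cd276, an immune checkpoint ligand, had a log2 ratio of 4.81 with reads in 16 D0 and 19 D2 cells, and Efhd1, a calcium-binding protein of mitochondria, had 5.32 with reads in 5 D0 and 14 D2 cells.

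The 10 largest ratios downward were genes read in most D0 cells and in a minority of D2 cells. Plagl1, an imprinted zinc finger factor, was at 0 to 2027 CPM over the D0 cells (median 244) and 0 to 6.06 CPM over the D2 cells (median 0), a log2 ratio of -8.34. Trpm1, a cation channel that the factor Mitf controls in melanocytes, was at 0 to 718 CPM over the D0 cells (median 161) and 0 to 3.17 CPM over the D2 cells (median 0), a log2 ratio of -7.49. Reads of these genes were found in 88 and 79 D0 cells and in 2 and 1 D2 cells. Ly6a, the surface protein Sca-1, had a log2 ratio of -6.02 and reads in 80 D0 and 11 D2 cells. Sfrp1, which binds Wnt ligands outside the cell, had a log2 ratio of -5.56 with reads in 86 D0 and 18 D2 cells. Spic, an ETS family factor, had a log2 ratio of -5.62 with reads in 77 D0 and 8 D2 cells, and Pcsk1, a prohormone convertase, -5.75 with reads in 74 D0 and 2 D2 cells. The others were Dcbld2 (log2 ratio -5.92), Frmd4b (-5.76), Med13 (-5.56), a part of the Mediator kinase module, and Syne2 (-5.54), a giant protein that links the nucleus to actin. Of the 10, Ly6a and Spic have transcripts of 955 and 1763 bases, and the other 8 run from 4372 to 21704 bases. Less the median of genes of like length, the 10 log2 ratios lay between -7.51 and -4.41.

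**Figure D4:**
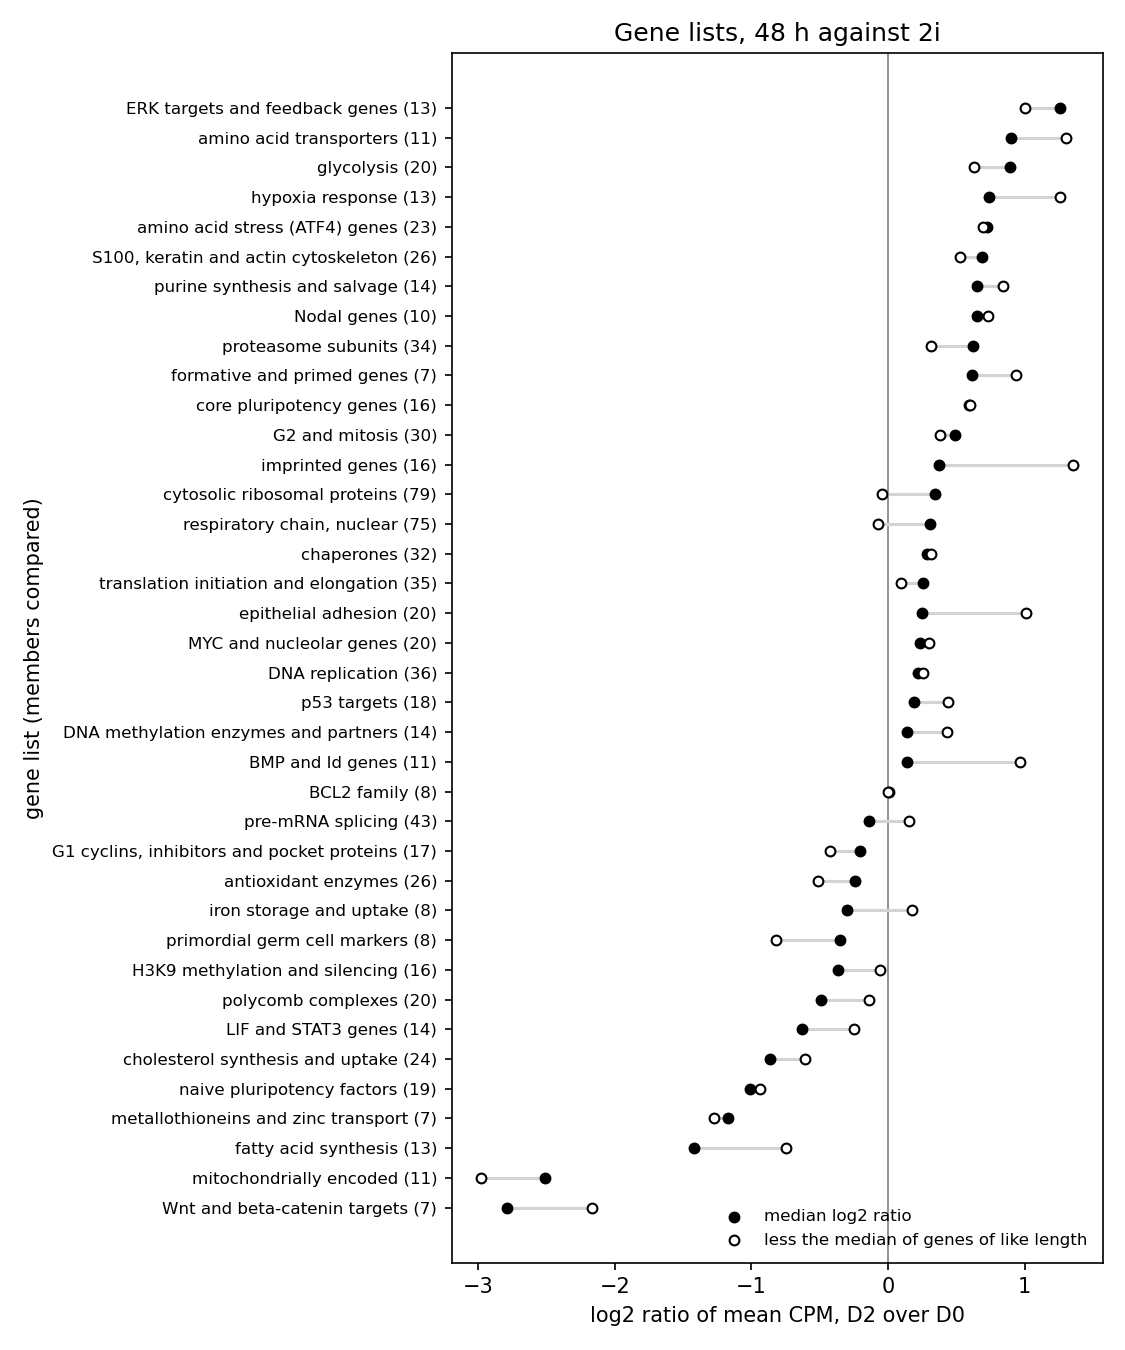
Median log2 ratio of mean CPM, D2 over D0 (x axis), for each gene list with at least 5 members compared (y axis, members compared in brackets). Filled circles are the medians as measured and open circles the medians after subtracting the median of genes of like length. Filled circles run from -2.79 for Wnt and beta-catenin targets to 1.26 for ERK targets.

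The lists of targets of the 2 inhibited pathways had medians of opposite sign. Of 7 Wnt and beta-catenin targets compared, 5 were at least 2-fold lower and 1 higher, with a median log2 ratio of -2.79, or -2.17 less the length medians, then 1 higher and 5 lower. Axin2, the feedback inhibitor most often used as a readout of beta-catenin, was at 0 to 291 CPM over the D0 cells (median 26.3) and 0 to 321 CPM over the D2 cells (median 0). It had a read in 81 D0 and 8 D2 cells, and its log2 ratio was -2.79. 1 D2 cell held 78.1% of the summed D2 level, and without the highest cell of each label the log2 ratio was -4.12. Sp5, a transcription factor induced directly by beta-catenin, ran from 0 to 146 CPM over the D0 cells, with a read in 71 of them. No D2 cell had a read of it, which allows up to 3.23% of cells with a read. Its D0 mean was 333 times a D2 floor of 3 reads in the shallowest cell, which is likewise no lower limit on the fold. Cdx1, a homeobox factor, was read in 71 D0 and 2 D2 cells with a log2 ratio of -4.98, and Znrf3, which removes Wnt receptors from the surface, in 68 D0 and 7 D2 cells with -3.46. Tcf7, the other member past 2-fold downward, was at a log2 ratio of -1.05 with 76.8% of its D2 level in 1 cell, -2.77 without the highest cells and 0.0256 when reads were summed over cells. The remaining members were not 2-fold lower: Ccnd1, cyclin D1, was at a log2 ratio of -0.21, and Ascl2, a helix-loop-helix factor also counted among the imprinted genes, at 4.15 with reads in 5 D0 and 16 D2 cells.

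ERK targets and feedback genes had a median log2 ratio of 1.26, or 1.00 less the length medians, then 7 higher and 2 lower, and 0.61 on plate columns 1 to 6 and 1.77 on columns 7 to 12, with 7 of 13 members compared at least 2-fold higher and 2 lower. Dusp6, the phosphatase that switches ERK off, was at 0 to 121 CPM over the D0 cells (median 0) and 0 to 1055 CPM over the D2 cells (median 0). The labels overlapped, and 16 D2 cells lay above the highest D0 cell. Myc, the growth-promoting factor, was at 0 to 39.2 CPM over the D0 cells (median 0) and 0 to 1278 CPM over the D2 cells (median 0) and had a log2 ratio of 4.33, against 3.09 for Dusp6. Egr1, an immediate early gene, had a log2 ratio of 4.26 with reads in 8 D0 and 24 D2 cells, and Spry4, a feedback inhibitor, 3.66 with reads in 18 D0 and 31 D2 cells. These genes were thus read in a minority of D2 cells, and the median over cells of Dusp6, Myc, Egr1 and Spry4 was 0 CPM in both labels. With the median over cells in place of the mean, the median log2 ratio of the list was -0.63. Feedback inhibitors of the same families went the other way: Spry2 had a log2 ratio of -2.92 with reads in 87 D0 and 27 D2 cells, and Spred1 -2.73 with reads in 51 D0 and 6 D2 cells. Etv4 and Etv5, ETS factors downstream of ERK, had log2 ratios of 0.27 and 0.20, with reads of Etv5 in 98.9% of D0 and 78.5% of D2 cells after thinning.

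The BMP list held members of either direction. Of 11 members compared 4 were at least 2-fold higher and 4 lower, and the median log2 ratio was 0.14, or 0.97 less the length medians, then 5 higher and 4 lower. The median was -0.38 without the cells with over 10 CPM of Hprt or Y-linked genes and -0.54 without the highest cell of each label for each gene. The higher members were Id1, Id2, Id3 and Dusp9. Id2 was at 0 to 513 CPM over the D0 cells (median 0) and 0 to 1772 CPM over the D2 cells (median 3.18) and Id3 at 0 to 325 CPM over the D0 cells (median 0.595) and 0 to 1615 CPM over the D2 cells (median 55.7). Their log2 ratios were 3.79 and 2.83, and 8 and 19 D2 cells lay above every D0 cell. Dusp9, an ERK phosphatase that BMP induces in embryonic stem cells, was read in 33 D0 and 83 D2 cells with a log2 ratio of 3.85. Id4, under the level needed for comparison, was read in 44 D0 and 2 D2 cells. Lower were the receptors Bmpr1a (log2 ratio -1.96) and Bmpr2 (-2.29, -3.69 without the highest cells), the shared signal carrier Smad4 (-2.72) and the inhibitor Smad7 (-1.99).

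Among 10 Nodal pathway genes compared, 4 were at least 2-fold higher and 1 lower, with a median log2 ratio of 0.65 (0.73 less the length medians, then 2 higher and 1 lower). With medians over cells the list median was -1.69. Lefty1, a secreted inhibitor that Nodal induces, was at 0 to 213 CPM over the D0 cells (median 0) and 0 to 3378 CPM over the D2 cells (median 0), a log2 ratio of 4.49. Lefty2 was past 2-fold by a small margin, with a log2 ratio of 1.03, -0.14 on plate columns 1 to 6 and reads in 45 D0 and 35 D2 cells. The ligand Nodal had a log2 ratio of 0.28 at a share of 73.3% of D0 and 34.4% of D2 cells, and its co-receptor Tdgf1 0.83. The repressor Skil (log2 ratio 1.84) and the cofactor Foxh1 (1.33) were also past 2-fold, and the receptor Acvr1b was lower (-2.45, with reads in 65 D0 and 6 D2 cells).

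LIF was present in both labels. Of 14 LIF and STAT3 genes compared 3 were at least 2-fold higher and 4 lower, with a median log2 ratio of -0.63 (-0.25 less the length medians, then 3 higher and 2 lower). The Pim kinases, targets of STAT3 in embryonic stem cells, differed in direction: Pim2 was at a log2 ratio of 5.97, Pim3 at 1.59 and Pim1 at -0.97. The receptor chains Lifr (-1.90) and Il6st (-1.84) were lower and have transcripts of 9655 and 8678 bases, and less the medians of genes of like length their log2 ratios were -0.78 and -0.72. Stat3 itself had a log2 ratio of -0.86 and Socs3, its feedback inhibitor, 0.21 with a read in 76.7% of D0 and 38.7% of D2 cells. Junb, an AP-1 factor, was at a log2 ratio of 1.26, but at -0.29 on plate columns 1 to 6. The letters TTCCNGGAA, searched on both strands of the 250 bases before the start, were in none of the 13 promoters of this list and in 1.05% of 6739 promoters of compared genes.

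Of 19 naive pluripotency factors compared, 10 were at least 2-fold lower and 1 higher, with a median log2 ratio of -1.01 (-0.94 less the length medians, then 1 higher and 9 lower). Their summed level per cell was 1755 to 11112 CPM in D0 (median 7373) and 837 to 20219.7 CPM in D2 (median 5366), with 23 D2 cells above the D0 median and 7 above every D0 cell. Tfcp2l1, a core factor of the naive network, was at 224 to 3199.7 CPM over the D0 cells (median 1565) and 0 to 4751 CPM over the D2 cells (median 0), a log2 ratio of -2.85. Klf4 was read in 86 D0 and 19 D2 cells and had a log2 ratio of -3.89. Tbx3 and Klf5 were at log2 ratios of -3.27 and -2.58, Klf2 at -1.78 and Prdm14 at -2.22. Mitf, the melanocyte factor, had a log2 ratio of -4.88 with reads in 84 D0 and 6 D2 cells. Not all members were lower to that extent. Nanog was at 0 to 1178 CPM over the D0 cells (median 445) and 0 to 2019 CPM over the D2 cells (median 119.7), a log2 ratio of -0.86, and Esrrb was at -0.60. Zfp42, also known as Rex1, was at 228 to 1868 CPM over the D0 cells (median 853) and 11.6 to 4465 CPM over the D2 cells (median 1190.1), a log2 ratio of 0.52, with a read in every cell of both labels. Spp1, osteopontin, was at a log2 ratio of 0.65, and Nr0b1, also called Dax1, was the member past 2-fold upward (1.33) at a share of 77.8% of D0 and 52.7% of D2 cells.

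The general pluripotency genes had a positive median log2 ratio, 0.59 (0.60 less the length medians, then 6 higher and 2 lower), with 6 of 16 at least 2-fold higher and 3 lower. With medians over cells the list median was -0.65. Pou5f1, which encodes Oct4, was at 0 to 893 CPM over the D0 cells (median 486) and 0 to 3404 CPM over the D2 cells (median 1564). In 83 of 93 D2 cells it was above the highest D0 cell, and the log2 ratio was 1.60. Utf1, a chromatin protein that Oct4 and Sox2 control, was at 0 to 173 CPM over the D0 cells (median 30.4) and 0 to 766 CPM over the D2 cells (median 245), a log2 ratio of 2.55, with 66 D2 cells above every D0 cell. Dppa2 and Dppa4, which pair on chromatin of developmental genes, had log2 ratios of 2.08 and 1.57, and Dppa5a had 1.35. Sox2 went the other way, at 0.684 to 317 CPM over the D0 cells (median 55.9) and 0 to 172 CPM over the D2 cells (median 5.50), a log2 ratio of -1.68. Zfp281 (log2 ratio -2.69) and Rif1 (-2.11, transcript of 8509 bases) were also lower. These lists served as the check of cell type: Pou5f1 was read in 89 of 90 D0 and 92 of 93 D2 cells. Of the 20 formative and primed genes 7 were compared, with a median log2 ratio of 0.61 (0.94 less the length medians, then 3 higher and 0 lower) and 3 at least 2-fold higher, among them Otx2 (1.53, reads in 45 D0 and 31 D2 cells), Trh (1.39) and Dusp6. The median of these 7 was -2.55 with medians over cells. Tead2 had a log2 ratio of -0.69.

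Of 14 DNA methylation genes compared 4 were at least 2-fold higher and 3 lower, with a median log2 ratio of 0.14 (0.43 less the length medians, then 6 higher and 2 lower). The median of this list was -0.01 on plate columns 1 to 6 and -0.17 on columns 7 to 12. Dnmt3l, the cofactor without catalytic activity, was at 0 to 201 CPM over the D0 cells (median 0) and 0 to 2775 CPM over the D2 cells (median 374), a log2 ratio of 4.34. Dnmt3a was at 0 to 144 CPM over the D0 cells (median 0) and 0 to 899.8 CPM over the D2 cells (median 32.2), a log2 ratio of 3.72. Dnmt3b was at 0 to 586 CPM over the D0 cells (median 97.4) and 0 to 4115 CPM over the D2 cells (median 148), a log2 ratio of 2.01. All 3 overlapped between the labels. The share of cells with a read was higher in D2 for Dnmt3a (20.0% of D0 and 59.1% of D2 cells after thinning) and Dnmt3l (32.2% of D0 and 92.5% of D2 cells) and lower for Dnmt3b (85.6% of D0 and 73.1% of D2 cells). Tdg, the glycosylase that removes oxidised methylcytosine, had a log2 ratio of 1.68. Uhrf1, which brings the maintenance enzyme to replicating DNA, was at 0.684 to 1763 CPM over the D0 cells (median 901) and 0 to 3379 CPM over the D2 cells (median 76.2), a log2 ratio of -1.74. Dnmt1, the maintenance enzyme, had a log2 ratio of -0.29 with a transcript of 5870 bases and 0.54 less the median of its length group. Zfp57, which protects imprints, had a log2 ratio of -1.01, Mbd1, a reader of methylated DNA, -2.98, and Hells, a remodeller, -0.99. Tet1 had a log2 ratio of 0.72 and Tet2 0.57.

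Of 18 germline genes that DNA methylation silences, 4 reached the level for comparison and their median log2 ratio was -0.54 (-0.60 less the length medians, then 0 higher and 1 lower). Dazl, an RNA-binding protein of germ cells, was at 0 to 2131 CPM over the D0 cells (median 26.5) and 0 to 458 CPM over the D2 cells (median 0), a log2 ratio of -2.24. Hormad1, a meiotic axis protein, had a log2 ratio of -0.13 with reads in 49 D0 and 59 D2 cells, Tex11 had -0.96 and Stk31 0.65. Of 16 imprinted genes compared 6 were at least 2-fold higher and 1, Plagl1, lower. Their median log2 ratio was 0.37, and 1.35 less the length medians, then 10 higher and 1 lower, at a median transcript length of 5160.5 bases. It was -0.28 on plate columns 1 to 6, 0.51 on columns 7 to 12 and -2.41 with medians over cells. Phlda2, a maternally expressed growth inhibitor, was at a log2 ratio of 4.01 with reads in 8 D0 and 50 D2 cells. Snrpn was at 0 to 255 CPM over the D0 cells (median 57.2) and 0 to 2964 CPM over the D2 cells (median 436), a log2 ratio of 2.88, with 67 D2 cells above every D0 cell, and Mest was at 2.30. The noncoding RNAs Rian and Meg3 of the same imprinted cluster had log2 ratios of -0.92 and -0.80, and 0.20 and 0.33 less the medians of genes of like length.

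Of 20 glycolysis genes compared 9 were at least 2-fold higher and 5 lower, with a median log2 ratio of 0.89 (0.63 less the length medians, then 9 higher and 4 lower). Their summed level per cell was 1091 to 19485 CPM in D0 (median 6846) and 8068 to 32461 CPM in D2 (median 16944). All 93 D2 cells lay above the D0 median and 23 above the highest D0 cell. Ldha, which reduces pyruvate to lactate, was at 0 to 2266 CPM over the D0 cells (median 622) and 248 to 10556 CPM over the D2 cells (median 3649), a log2 ratio of 2.40. Eno1, which makes phosphoenolpyruvate, was at 15.0 to 2789.7 CPM over the D0 cells (median 1097) and 1545 to 9884 CPM over the D2 cells (median 4388), a log2 ratio of 2.05. Of the D2 cells 74 for Ldha and 81 for Eno1 lay above the highest D0 cell. Slc16a3, the lactate exporter MCT4, was read in 39 D0 and 79 D2 cells and had a log2 ratio of 3.28, while Slc16a1, the exporter MCT1, had -1.45. Eno3, the muscle enolase, had a log2 ratio of 3.40, Pgk1 1.29, Pkm 0.91 and Gapdh 0.88. The hexokinases that trap glucose in the cell were lower: Hk2 was at 0 to 522 CPM over the D0 cells (median 159) and 0 to 332 CPM over the D2 cells (median 5.93), a log2 ratio of -3.11, and Hk1 was at -2.35. The glucose transporters parted, with Slc2a1 (GLUT1) at a log2 ratio of 1.94 and Slc2a3 (GLUT3) at -1.28. The fifth lower member was Pfkm, the phosphofructokinase of muscle, at a log2 ratio of -1.17 with reads in 73 D0 and 5 D2 cells and 77.8% of its D2 level in 1 cell, while the liver form Pfkl had 1.46.

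Genes of the hypoxia response, the program that HIF factors drive through the DNA letters ACGTG, had a median log2 ratio of 0.74, or 1.26 less the length medians, then 8 higher and 1 lower, with 6 of 13 at least 2-fold higher and 2 lower. With means of log-normalized values the list median was -0.02. Bnip3, which marks mitochondria for autophagy, was at 0 to 262 CPM over the D0 cells (median 0) and 0 to 3141 CPM over the D2 cells (median 141), a log2 ratio of 3.93. Fam162a, a mitochondrial protein, was at 0 to 156 CPM over the D0 cells (median 17.8) and 0 to 1388 CPM over the D2 cells (median 208), a log2 ratio of 3.28. The labels overlapped for both, with 37 and 61 D2 cells above the highest D0 cell. Egln3, a prolyl hydroxylase that marks HIF for degradation, had a log2 ratio of 4.19 with reads in 5 D0 and 25 D2 cells, and Ankrd37 had 3.30 with reads in 15 D0 and 27 D2 cells. Pdk1, which keeps pyruvate out of the mitochondrion, was at a log2 ratio of 1.30 at a share of 56.7% of D0 and 43.01% of D2 cells. Kdm3a, a histone demethylase that HIF also induces, was at a log2 ratio of -1.35, and Mxi1 at -1.05. ACGTG stood on either strand in the 250 bases before the start of 60% of 10 hypoxia and 42.1% of 19 glycolysis genes with a RefSeq promoter, against 23.7% of 6739 compared genes and 16.6% of all 27025. Among the 931 compared genes that were at least 2-fold higher the share was 19.4%, and among the 1793 that were at least 2-fold lower it was 23.6%. Within glycolysis the letters stood in the promoters of 5 of 9 higher and 3 of 4 lower genes, and within the hypoxia list of 4 of 6 higher and 0 of 2 lower ones. The lower genes Hk2 and Slc16a1 held 2 matches each. The promoters of 4 of these genes are shown (RefSeq, GRCm38.p6) because 1 list or the other places them among its 3 largest ratios and they hold at least 2 matches, with ACGTG or its complement CACGT in capitals; CACGTG is a match on both strands and also the E-box of MYC and other helix-loop-helix factors.
Bnip3, chr7:138909507-138909756, minus strand: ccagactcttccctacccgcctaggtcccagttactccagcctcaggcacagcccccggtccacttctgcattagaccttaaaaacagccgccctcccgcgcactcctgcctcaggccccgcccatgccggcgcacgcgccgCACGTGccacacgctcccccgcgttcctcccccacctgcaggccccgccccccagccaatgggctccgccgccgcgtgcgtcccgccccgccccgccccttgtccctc
Ankrd37, chr8:45999851-46000100, minus strand: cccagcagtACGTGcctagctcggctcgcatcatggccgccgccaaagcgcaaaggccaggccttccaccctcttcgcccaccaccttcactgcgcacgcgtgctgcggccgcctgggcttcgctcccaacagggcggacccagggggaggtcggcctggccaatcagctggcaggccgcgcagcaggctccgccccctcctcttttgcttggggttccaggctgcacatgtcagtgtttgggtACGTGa
Ldha, chr7:46845554-46845803, plus strand: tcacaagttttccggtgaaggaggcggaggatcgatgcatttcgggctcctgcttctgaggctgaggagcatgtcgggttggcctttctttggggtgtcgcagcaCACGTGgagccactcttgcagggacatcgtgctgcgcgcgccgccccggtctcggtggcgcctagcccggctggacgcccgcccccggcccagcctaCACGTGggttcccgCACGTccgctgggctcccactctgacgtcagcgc
Slc16a3, chr11:120948817-120949066, plus strand: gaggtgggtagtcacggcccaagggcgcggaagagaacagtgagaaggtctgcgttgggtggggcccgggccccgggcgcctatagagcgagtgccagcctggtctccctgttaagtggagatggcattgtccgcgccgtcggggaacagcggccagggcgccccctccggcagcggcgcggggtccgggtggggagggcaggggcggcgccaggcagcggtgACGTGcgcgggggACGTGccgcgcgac
The windows of Bnip3 and Ankrd37 hold 2 matches each, that of Ldha 5 and that of Slc16a3 2, counting both strands. The window of Eno1 holds none.

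Mitochondrially encoded RNAs were the other list far below the rest. Of 11 compared 10 were at least 2-fold lower and the median log2 ratio was -2.51, or -2.98 less the length medians, then 0 higher and 11 lower. The summed level per cell was 12226 to 104057 CPM in D0 (median 45351) and 7.13 to 27836 CPM in D2 (median 13187), so 38 D2 cells lay below the lowest D0 cell and none above the D0 median. The lowest D2 cell, with 7.13 CPM, was nearly without these reads. mt-Co1, a subunit of cytochrome oxidase, was at 4049.6 to 56417 CPM over the D0 cells (median 21189) and 3.57 to 11211 CPM over the D2 cells (median 3946), a log2 ratio of -2.53. mt-Nd6, the subunit encoded on the light strand, had a log2 ratio of -3.30, mt-Nd4 -2.56, mt-Nd1 -1.43 and mt-Cytb -0.78. The nuclear genes of the respiratory chain did not follow: of 75 compared 3 were at least 2-fold higher and 2 lower, with a median log2 ratio of 0.31 and -0.07 less the length medians, then 4 higher and 2 lower. Uqcrb (log2 ratio -1.42) and Atp5g3 (-1.24) were the lower ones, and Ndufa8 (1.40) had the largest ratio.

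**Figure D5:**
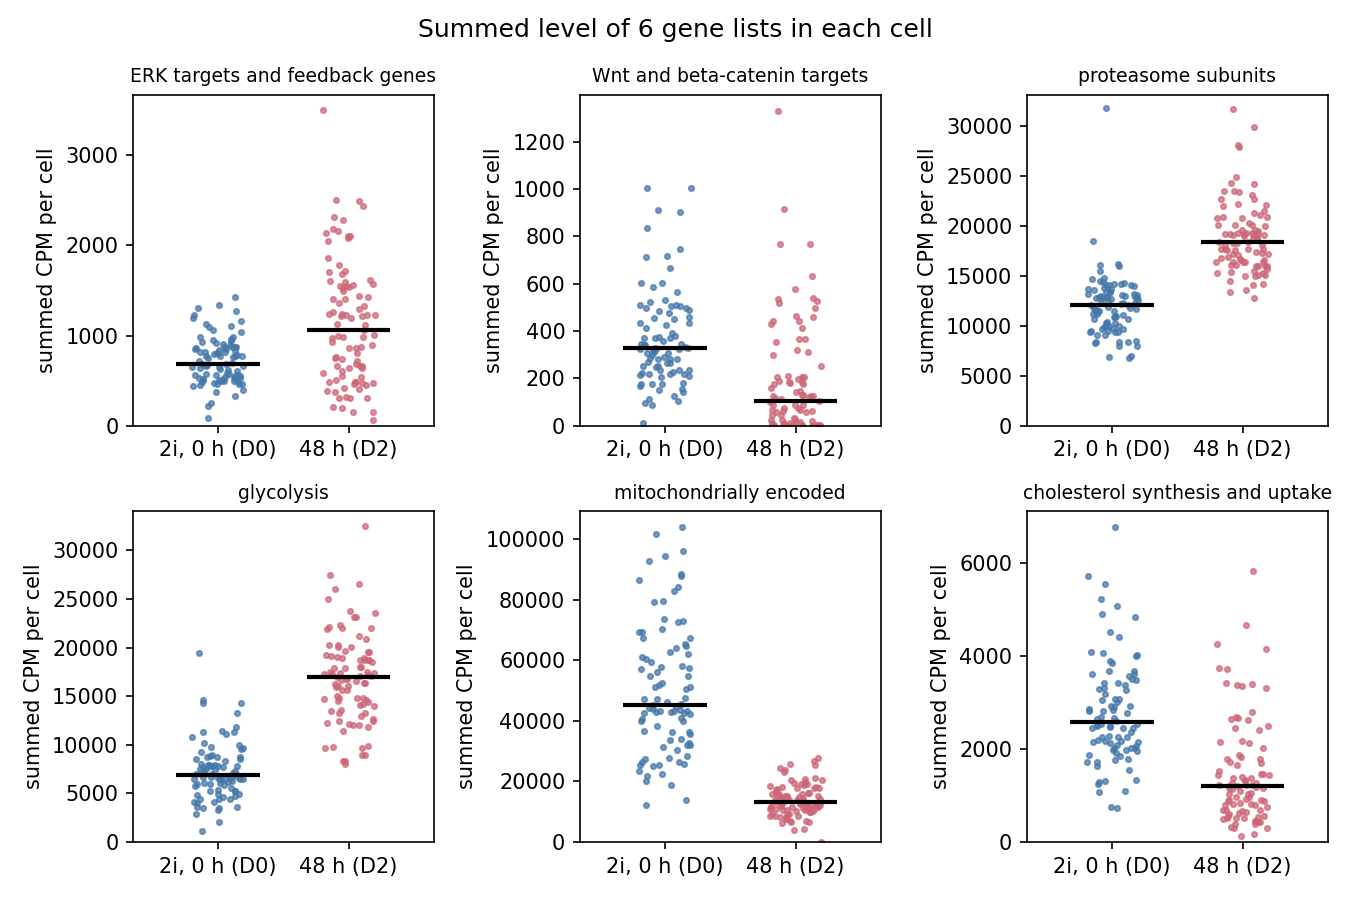
Summed CPM of the members of 6 gene lists in each D0 and D2 cell (y axis; each point is 1 cell, the bar is the median, horizontal scatter is for legibility). Glycolysis and proteasome sums of D2 cells lie above the D0 median, mitochondrially encoded sums lie below it, and Wnt, ERK and cholesterol sums overlap widely.

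For cholesterol synthesis and uptake 11 of 24 were at least 2-fold lower and 0 higher, with a median log2 ratio of -0.87 (-0.61 less the length medians, then 2 higher and 7 lower). The summed level per cell was 726 to 6779.8 CPM in D0 (median 2569) and 122 to 5838 CPM in D2 (median 1201), and 16 D2 cells lay above the D0 median. Hmgcs1, an early synthase of the pathway, was at 0 to 1024 CPM over the D0 cells (median 241) and 0 to 819 CPM over the D2 cells (median 0), a log2 ratio of -2.01. Dhcr7, which completes cholesterol, had a log2 ratio of -1.98, Nsdhl -1.97 and Sqle, the squalene epoxidase, -1.09. Lss, just under 2-fold, had the largest ratio, with a read in fewer D2 than D0 cells. All 24 members compared had a lower share of D2 cells with a read, as had 8063 of all 8750 genes. For fatty acid synthesis 8 of 13 were at least 2-fold lower and 0 higher, with a median log2 ratio of -1.42 (-0.75 less the length medians, then 0 higher and 4 lower). Scd1, which puts the double bond into stearate, was at 0 to 847 CPM over the D0 cells (median 252) and 0 to 874 CPM over the D2 cells (median 0), a log2 ratio of -3.39. Acss2, which makes acetyl-CoA from acetate, had a log2 ratio of -3.89, and Acaca, the rate-limiting carboxylase, -2.03. Srebf1, which encodes the regulator SREBP1, had a log2 ratio of -1.93 (-3.99 without the highest cells), and Fasn, with a transcript of 10050 bases, -0.60 and 0.53 less the median of its length group.

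Genes of the amino acid response, which the factor ATF4 drives, had a median log2 ratio of 0.72 (0.70 less the length medians, then 9 higher and 2 lower) with 8 of 23 at least 2-fold higher and 1 lower. With medians over cells the list median was -0.18. All 3 enzymes of serine synthesis were among the higher genes. Phgdh, the first of them, was at 0 to 562 CPM over the D0 cells (median 41.4) and 0 to 1475 CPM over the D2 cells (median 374), a log2 ratio of 2.54. Psat1 was at 0 to 1564 CPM over the D0 cells (median 335) and 0 to 11111 CPM over the D2 cells (median 1494), a log2 ratio of 2.21, and Psph had 1.47. Chac1, which degrades glutathione, had a log2 ratio of 4.32 with reads in 7 D0 and 28 D2 cells. Amino acid transporters had a median log2 ratio of 0.90 (1.30 less the length medians, then 7 higher and 2 lower), with 5 of 11 at least 2-fold higher and 2 lower. The list median was -3.21 with medians over cells and -0.05 with means of log-normalized values. Slc7a6 (log2 ratio 2.78) and Slc7a7 (3.08), both light chains for basic and neutral amino acids, and Slc7a3 (1.17), an arginine transporter, were higher. Slc43a1 had a log2 ratio of 2.77. Slc7a5, the leucine transporter LAT1, was lower (log2 ratio -1.69), as was the glutamine transporter Slc1a5 (-1.24). In purine metabolism 3 of 14 were at least 2-fold higher and 2 lower, with a median log2 ratio of 0.65 (0.84 less the length medians, then 4 higher and 2 lower). Adk, which salvages adenosine, had a log2 ratio of 2.57, Prps1, which makes the sugar substrate, 1.36 and Ada 1.27, while Pfas and Adss, enzymes of the de novo route, had -3.30 and -1.61.

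Antioxidant enzymes split, with 5 of 26 at least 2-fold higher, 5 lower and a median log2 ratio of -0.24 (-0.51 less the length medians, then 5 higher and 8 lower). Their summed level per cell had a median of 9250 CPM in D0 and 11323 CPM in D2, with 73 D2 cells above the D0 median. Prdx6, a peroxiredoxin, was at 0 to 493 CPM over the D0 cells (median 69.9) and 0 to 3267 CPM over the D2 cells (median 671), a log2 ratio of 3.01, and 61 D2 cells lay above every D0 cell. Hmox1, which breaks down haem, was at a log2 ratio of 2.87, Gpx3 at 3.47 and Gpx4, which protects membrane lipids, at 1.36. Sod1, the cytosolic superoxide dismutase, was at 62.3 to 2187 CPM over the D0 cells (median 1111) and 0 to 743 CPM over the D2 cells (median 199), a log2 ratio of -2.39. Gsr, the glutathione reductase, had a log2 ratio of -2.05, and Gclc, the rate-limiting enzyme of glutathione synthesis, -2.60 with reads in 60 D0 and 3 D2 cells. Iron storage and uptake genes had a median log2 ratio of -0.30 over 8 genes, 0.18 less the length medians, then 1 higher and 0 lower. Their summed level per cell had a median of 2289 CPM in D0 and 3538 CPM in D2, with 81 D2 cells above the D0 median. Fth1, the ferritin heavy chain, had a log2 ratio of 1.36 and Ftl1, the light chain, 0.65, while the transferrin receptor Tfrc had -0.37 and Steap3, which reduces endosomal iron, 2.63. Ireb2 and Aco1, the proteins that bind iron-responsive elements, had log2 ratios of -1.72 and -1.21. Among metallothioneins and zinc transporters 4 of 7 were at least 2-fold lower and 0 higher, with a median log2 ratio of -1.17 (-1.27 less the length medians, then 2 higher and 4 lower). Mt1 was at 115 to 6945 CPM over the D0 cells (median 833) and 0 to 4693 CPM over the D2 cells (median 276), a log2 ratio of -1.23, and Mt2 had -1.17. The zinc importers Slc39a1 (log2 ratio -2.25) and Slc39a6 (-1.68) were the other lower members. The letters TGCGCNC or TGCACNC, the core of the metal response element, were in the promoters of 3 of 6 members and in 31.4% of promoters of compared genes. The paper describes a separate cluster among the 48 h cells, with Mt1, Ftl1, Sod1 and Prdx6 among its marker genes. D2 values here pool all kept D2 cells, and that cluster was not set apart.

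Of 79 cytosolic ribosomal proteins compared, Rps3a1 was the one at least 2-fold higher (1.17) and none was 2-fold lower, and the median log2 ratio of 0.34 became -0.04 less the length medians, then 1 higher and 6 lower. The smallest ratios were those of Rpl39 (log2 ratio -0.76), Rpl22l1 (-0.75) and Rps27 (-0.70). Ribosomal protein genes have many processed pseudogenes, so their single values are uncertain. Their summed level per cell was 22404 to 185050 CPM in D0 (median 54286) and 44588 to 167953 CPM in D2 (median 71399.5). Of 35 translation factors 7 were at least 2-fold higher and 9 lower, with a median log2 ratio of 0.26 (0.10 less the length medians, then 2 higher and 6 lower). Eif5a, the factor that carries hypusine, and Eif6 both had a log2 ratio of 1.39, and Eif5b and Eif3b had -1.67 and -1.52. Proteasome subunits lay mostly above 0, with 31 of 34 above 0 against 3957 of all 8750 genes compared. Of these subunits 8 were at least 2-fold higher and 0 lower, with a median log2 ratio of 0.62 (0.32 less the length medians, then 2 higher and 1 lower). Their summed level was 6729 to 31853 CPM in D0 (median 12067) and 12746 to 31737 CPM in D2 (median 18397), and all 93 D2 cells lay above the D0 median. Psme2, an activator subunit, had a log2 ratio of 1.88, and Psmb7 and Psma2 of the core particle 1.32 and 1.26, while the activators Psme1 (-0.68) and Psme3 (-0.36) had the smallest ratios.

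Cell cycle genes were mixed. DNA replication genes had a median log2 ratio of 0.22 (0.26 less the length medians, then 9 higher and 1 lower) with 6 of 36 at least 2-fold higher and 0 lower. Pold2, a polymerase delta subunit, had a log2 ratio of 1.84, Rfc4 1.70 and Gins2 1.35, whereas Mcm2 had -0.21 and Pcna 0.25. In the G2 and mitosis list 6 of 30 were at least 2-fold higher and 4 lower, with a median log2 ratio of 0.49 (0.38 less the length medians, then 6 higher and 1 lower). Medians over cells in place of means gave -0.20. Ccna2, cyclin A2, was at 0 to 757 CPM over the D0 cells (median 206) and 0 to 3352 CPM over the D2 cells (median 481), a log2 ratio of 1.62. Cdc20, which activates the anaphase-promoting complex, had a log2 ratio of 1.55, Cdc25b 1.62 and Ccnb1, cyclin B1, 0.15. Top2a and Cenpf, with transcripts of 5221 and 11130 bases, had log2 ratios of -1.67 and -1.71, and -0.83 and -0.58 less the medians of genes of like length. For G1 cyclins, inhibitors and pocket proteins the median was -0.21 (log2 ratio -0.43 less the length medians, then 2 higher and 3 lower) with 1 of 17 at least 2-fold higher and 6 lower, and it passed above 0 with median-of-ratios factors. Ccne1, cyclin E1, had a log2 ratio of 1.88, and E2f1, which drives S phase genes, had -3.23 with reads in 71 D0 and 16 D2 cells. Cdk6 and Cdk4, which pair with the D cyclins, parted at log2 ratios of -2.65 and 0.61.

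Of 20 polycomb genes 2 were at least 2-fold higher and 7 lower, with a median log2 ratio of -0.49 (-0.14 less the length medians, then 3 higher and 6 lower). Phc1 had a log2 ratio of 2.09 and Pcgf2 1.55, both parts of PRC1. Suz12 and the methyltransferase Ezh2 of PRC2 had log2 ratios of -2.15 and -1.26. Bmi1 had a log2 ratio of -2.21 with reads in 47 D0 and 4 D2 cells, and 1 D2 cell held 93.9% of its D2 level. In the H3K9 methylation and silencing list 4 of 16 were at least 2-fold lower and 0 higher, with a median log2 ratio of -0.37 (-0.06 less the length medians, then 3 higher and 1 lower). Cbx3, the heterochromatin protein HP1 gamma, was at 0 to 518 CPM over the D0 cells (median 110.5) and 0 to 98.4 CPM over the D2 cells (median 5.51), a log2 ratio of -2.88. Atrx, a remodeller, had a log2 ratio of -2.08 and Cbx5, HP1 alpha, -1.31, or -0.18 less the median of its length group. Splicing genes had a median log2 ratio of -0.14 (0.15 less the length medians, then 2 higher and 6 lower), also above 0 with TMM or median-of-ratios factors, with 2 of 43 at least 2-fold higher and 6 lower. Hnrnpd (log2 ratio -2.45), Srsf1 (-2.26) and Hnrnpu (-1.71), which bind pre-mRNA, had the smallest ratios, and Snrpd3 (1.32) and Snrpd2 (1.08), core proteins of the spliceosomal particles, the largest.

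In the S100, keratin and actin list 12 of 26 were at least 2-fold higher and 1 lower, with a median log2 ratio of 0.69 (0.52 less the length medians, then 10 higher and 2 lower). Tmsb4x, thymosin beta 4, was at 0 to 1047 CPM over the D0 cells (median 20.4) and 1.03 to 1248 CPM over the D2 cells (median 176), a log2 ratio of 2.39. S100a6 had a log2 ratio of 3.33 with reads in 22 D0 and 54 D2 cells, Lgals3, galectin 3, 2.22, and S100a13 -2.59. Actb, the actin most abundant in these cells, was at 1105 to 17938 CPM over the D0 cells (median 8090.2) and 2428 to 14479 CPM over the D2 cells (median 7502), a log2 ratio of -0.11. Of 20 epithelial adhesion genes 7 were at least 2-fold higher and 5 lower. Cldn6, a claudin of early embryonic epithelium, had a log2 ratio of 3.84 with reads in 9 D0 and 30 D2 cells, and Itga5, the fibronectin receptor chain, 3.74 with reads in 34 D0 and 34 D2 cells. Epcam was at 0 to 463 CPM over the D0 cells (median 4.91) and 0 to 1279 CPM over the D2 cells (median 71.2), a log2 ratio of 2.31. Cdh1, which encodes E-cadherin, was at 0 to 973 CPM over the D0 cells (median 437) and 0 to 1756 CPM over the D2 cells (median 7.34), a log2 ratio of -1.61, and Cdh3, P-cadherin, had 2.38. Dsp, desmoplakin, had a log2 ratio of -4.59 with reads in 38 D0 and 1 D2 cells. The median of the adhesion list was 0.25, and 1.01 less the length medians, then 10 higher and 1 lower. It was 0.67 on plate columns 1 to 6 and -0.01 on columns 7 to 12, and -0.46 without the highest cell of each label for each gene.

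Markers of other cell types were mostly under the level for comparison, except those of primordial germ cells. The 8 markers of 2-cell-like cells had no read in any D0 or D2 cell, and none of 10 mesoderm markers reached the level for comparison. 1 of 11 primitive endoderm markers, Lama1 (log2 ratio -1.26), 1 of 8 neuroectoderm markers, Tubb3 (0.70), and 1 of 10 fibroblast markers, Fn1 (-2.14, fibronectin), did so. Less the medians of genes of like length, the log2 ratios of Lama1, Tubb3 and Fn1 were -0.14, 0.45 and -1.01. Fn1 was at 0 to 3016 CPM over the D0 cells (median 726) and 0 to 1536 CPM over the D2 cells (median 1.59) and made up nearly all of the summed fibroblast level, which was 0 to 3016 CPM in D0 (median 726) and 0 to 1538 CPM in D2 (median 1.59). The fibroblast markers Col1a2, Col3a1 and Postn had no read in any cell, and Col1a1 had reads in 5 D0 and 2 D2 cells. The summed primitive endoderm level was 0 to 339.8 CPM in D0 (median 41.2) and 0 to 656 CPM in D2 (median 0), and that of mesoderm markers 0 to 176 CPM in D0 (median 13.7) and 0 to 64.7 CPM in D2 (median 0). Of 4 trophectoderm markers compared, Tead4 (log2 ratio -1.81) and Tfap2c (-1.24) were at least 2-fold lower, Plet1 had 0.05, and Ascl2 was described above. Of 8 primordial germ cell markers compared 2 were at least 2-fold higher and 3 lower, with a median log2 ratio of -0.35 (-0.82 less the length medians, then 2 higher and 3 lower), and their summed level was 189.6 to 2426 CPM in D0 (median 1108) and 5.77 to 2489 CPM in D2 (median 447). Kit, a receptor tyrosine kinase, was at 0 to 1646 CPM over the D0 cells (median 395) and 0 to 755 CPM over the D2 cells (median 0), a log2 ratio of -4.98, and Dnd1, an RNA-binding protein of germ cells, had 2.64 with reads in 16 D0 and 23 D2 cells.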

How the data were processed

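RNA libraries of the scNMT-seq protocol came from single sorted E14 cells, 1 per well. The authors aligned reads with HISAT2 to GRCm38 (per the labels) and deposited whole-number read counts per gene, with no unique molecular identifiers; the counter and its settings are not given in the sources used here.

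Counts were read as deposited, with Python 3.11.15, numpy 2.4.6, pandas 2.3.3 and scipy 1.17.1. Cells were kept with over 200000 reads, over 2000 genes with a read and a mitochondrial share under 15%; no doublet caller was run on sorted wells and no pair of kept cells held identical values. Values are mean CPM over cells, and the comparison is the log2 ratio of mean CPM plus 1 among genes with an average of both label means of at least 10 CPM. Calls are ratios past 2-fold. Cells were thinned without replacement to 200000 reads with a fixed seed, and the code was checked on simulated data. The simulation gave both labels the same spread over cells, so it does not cover the wider spread of D2. Lengths are those of the longest APPRIS principal transcript of a gene symbol in GENCODE vM21 on GRCm38, or else of its longest basic transcript, and promoters are the RefSeq windows of GRCm38.p6, 250 bases before the start, the first listed where a gene has several. Intervals and the limits for a count of 0 cover counting error only. Precision rests on 255040 to 10073000 reads per D0 cell and 491549 to 9812320 per D2 cell.

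Groups are the D0 and D2 labels. The comparison and the 45 gene lists were chosen with earlier results of these data known. Named genes are the 10 largest and 10 smallest log2 ratios among established symbols past 2-fold with all reads, thinned and on both sides of the plate, and in each list the 3 largest and 3 smallest ratios, members with textbook roles and those whose share of cells with a read was most lowered at a positive ratio; of these, the ones the text turns on are printed. Alternatives were TMM and median-of-ratios factors (edgeR 4.0.16), totals without the 100 most abundant genes, thinning, a pseudocount of 10, other filters, summed reads, medians, log-normalized means, plate columns 1 to 6 or 7 to 12 and leaving out cells. Leaving out plate column 12, leaving out the highest cell of each label for each gene and subtracting length medians were chosen after seeing the data. Some genes are not reported here.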

Additional observations from a re-analysis of the deposited data

How the results depend on the processing

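No paired analysis was possible because the results come from no test and the labels name no replicate cultures. Against 1220 genes at least 2-fold higher and 2318 lower of 8750, the counts were 2526 and 4501 of 25496 with no filter on low values, 580 and 829 of 4090 genes of at least 50 CPM, 318 and 5875 with the median over cells in place of the mean, and 55 and 362 with means of log-normalized values. Without the highest cell of each label for each gene they were 985 and 3070. The median number of genes with a read per cell was 9002 in D0 and 4744 in D2. It was 6258.5 and 3262 after thinning to 50000 reads, and 6724.5 and 3365 among genes of at least 10 CPM.

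Among values past 2-fold, the sign turned with medians over cells for the ERK list (-0.63) and, among named genes, for Bok (-3.17), F11r (-4.99), Foxh1 (-3.27), Junb (-0.63), Lefty2 (-0.40), Mest (-0.27), Nr0b1 (-0.33), Otx2 (-0.19), Pcgf2 (-2.83), Pdk1 (-4.14), Prps1 (-0.24), Slc7a6 (-3.41) and Trh (-3.27), all of them log2 ratios of genes with a read in a lower share of D2 than of D0 cells. It also turned for Junb (-0.29) and Lefty2 (-0.14) on plate columns 1 to 6 and for Tcf7 (0.0256) with summed reads. The cause was not tested. Filters on the level of genes cannot change a gene's ratio and are not counted here. Of the other log2 ratios of named genes under an alternative, 3525 kept their sign and their side of 2-fold and 427 changed at least 1 of these; for the list medians these numbers were 573 and 114.

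List medians also changed sign. With medians over cells 18 lists did so, the ERK list included, and with means of log-normalized values 12, all of them positive as reported. Below 0 under both were the DNA methylation, BMP, MYC, translation, chaperone, p53, amino acid transporter, replication, imprinted, adhesion and BCL2 lists. Medians over cells also turned the general pluripotency, formative, Nodal, amino acid response, G2 and neuroectoderm medians. Means of log-normalized values also turned that of the hypoxia list. On plate columns 1 to 6 the medians of the DNA methylation (-0.01), imprinted (-0.28) and p53 lists (-0.29) were below 0, on columns 7 to 12 those of the DNA methylation (-0.17) and adhesion lists (-0.01), and that of the trophectoderm markers was above it (0.20). Without the highest cell of each label for each gene the DNA methylation (-0.02), BMP (-0.54), p53 (-0.12) and adhesion lists (-0.46) were below 0, with summed reads the BMP (-0.07) and adhesion lists (-0.29), and without the cells with Hprt or Y-linked reads the BMP list (-0.38). The BCL2 median, 0.0078, changed sign under 11 alternatives, some of these among them. The median log2 ratio of the splicing list passed 0 with TMM (0.05) and median-of-ratios factors (0.08), and that of the G1 list with the latter (0.02). At 200000 reads, genes of 20 to 50 CPM had a read in a median of 68.9% of D0 and 24.7% of D2 cells, so the values of low genes rest on fewer cells in D2.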

Other observations

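4 further gene groups are given as values. Of 18 p53 target genes compared 4 were at least 2-fold higher in D2 and 2 lower, with a median log2 ratio of 0.19 (0.44 less the length medians, then 5 higher and 2 lower). Its median was -0.29 on plate columns 1 to 6 and 0.43 on columns 7 to 12. Perp, a desmosomal protein that p53 induces, had a log2 ratio of 2.79 with reads in 8 D0 and 17 D2 cells, and Trp53inp1 had -1.47. Trp53 itself had a log2 ratio of 0.58, Cdkn1a, the cell cycle inhibitor p21, -0.44 and Mdm2, which degrades p53, 0.07. In the MYC and nucleolar list 5 of 20 were at least 2-fold higher and 5 lower, with a median log2 ratio of 0.23 (0.30 less the length medians, then 5 higher and 3 lower). Odc1, the rate-limiting enzyme of polyamine synthesis, was at 0 to 549.9 CPM over the D0 cells (median 179) and 0 to 5275 CPM over the D2 cells (median 444), a log2 ratio of 2.01, and 43 D2 cells lay above every D0 cell. Srm, the spermidine synthase, had a log2 ratio of 1.33, while Cad, the first enzyme of pyrimidine synthesis, and Gnl3, nucleostemin, had -1.93 and -1.52.

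Of 32 chaperone genes 5 were at least 2-fold higher and 2 lower, with a median log2 ratio of 0.29 (0.32 less the length medians, then 2 higher and 1 lower). Cct7, a subunit of the cytosolic chaperonin, had a log2 ratio of 1.26, and Hspb1, a small heat shock protein, 1.27. Canx, the calnexin of the endoplasmic reticulum, was at 2.74 to 4011 CPM over the D0 cells (median 1504) and 0 to 1436 CPM over the D2 cells (median 237), a log2 ratio of -2.35, and Pdia3 had -1.07. In the BCL2 family 2 of 8 genes compared were at least 2-fold higher and 2 lower, with a median of 0.0078 (-0.0020 less the length medians, then 2 higher and 1 lower). Bnip3 and Bok (log2 ratio 1.14) were the higher ones, and Mcl1 (-1.24) and Bcl2l1 (-1.17), which protect cells from apoptosis, the lower ones.

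Hprt reached 54.1 CPM in a D0 cell and 118 CPM in a D2 cell, both in plate column 12. Outside column 12 its highest value was 13.2 CPM in D0 and 4.78 CPM in D2. In the 24 h cells it ran from 0 to 633 CPM.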
